A study of Homo sapiens with 6 samples.

Results

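Hyaluronan is a long, unsulfated sugar polymer of the extracellular matrix, and 9 human genes for its synthesis, its breakdown and its receptors were examined by name in a breast cancer line. The 9 were taken as a functional family of HAS2, HAS3, CEMIP, CEMIP2 (TMEM2 in older annotation), HYAL1, HYAL2, HYAL3, CD44 and HMMR, and the probe set that stands for each was chosen by its mean over all 6 arrays, the brightest named one being used. Named probe sets were found for 7 of the 9, among 14884 genes tested in all. A probe set counts as named here where the annotation gives it a single gene symbol, and any with several symbols were left out. HYAL1 and HYAL3 had no named probe set in this sense and are not analysed. The family was taken up when the difference of CEMIP between the groups was already known, so the differences below describe these arrays. The adjusted p given with them places each gene within the fit across all genes and is no independent test of the family.

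GeneChip whole-transcript arrays were hybridised with RNA of MDA-MB-231, a widely used human cell line of triple-negative breast cancer. The NR1D1 KO group (3 arrays) carried a knockout of NR1D1, which encodes REV-ERBα, a nuclear receptor that binds heme and represses transcription in the circadian clock, and the control group (3 arrays) carried the control genotype of the same line. Both groups had been kept for 72 h in medium with 200 µM hydrogen peroxide, so the comparison asks how knockout and control cells differ under oxidative stress and cannot separate a changed response to peroxide from an earlier difference. Neither the way the knockout was made nor the number of clones is given in the sources used here. The sample titles speak of biological replicates without saying whether separate cultures were used. The p-values therefore reflect only the spread among these samples, some of which may be technical.

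Hyaluronan is made at the plasma membrane by synthases of the HAS family, which join UDP-glucuronic acid and UDP-N-acetylglucosamine and push the growing chain out of the cell. Chains are cut by hyaluronidases of the HYAL family and, in a separate route, with the help of CEMIP. CEMIP2 is a transmembrane relative of CEMIP for which a hyaluronidase activity at the cell surface was described in the mouse. CD44 is the main hyaluronan receptor of many cell types and is known to be abundant in MDA-MB-231 cells. HMMR binds hyaluronan too, and inside the cell it is a protein of the mitotic spindle.

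Each array gave log2 values for 53617 probe sets, and the medians of the 6 arrays lay between 5.18 and 5.22. No array pair held identical values. No probe set carried NR1D1 as its single gene symbol (0 in the annotation used here), and probe sets with several symbols were not used. The transcript of the targeted gene therefore gave no check of the knockout here. Markers of the line were read at fixed genes. VIM, the mesenchymal filament gene for which this line is known, measured 9.35 ± 0.08 in knockout and 9.01 ± 0.0479 in control arrays (log2, mean ± SD, n = 3 each). VIM carried 3 named probe sets, of which the brightest is given. Whether that probe set reads the VIM transcript itself was not checked. ESR1 encodes the estrogen receptor, for which the line is known to be negative. It measured 5.19 ± 0.253 in knockout and 5.19 ± 0.074 in control arrays (n = 3 each). PGR, the progesterone receptor gene, measured 4.05 ± 0.0251 in knockout and 3.99 ± 0.0288 in control arrays (n = 3 each). The files hold no detection calls, so no gene was called absent. CDH1 and ERBB2 carried no named probe set here.

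The 7 measured genes differed widely among themselves, and the one large difference was that of CEMIP. CEMIP was 4.15-fold lower in the knockout, CD44 was 1.28-fold lower and HAS2 1.35-fold higher. HAS3, CEMIP2, HYAL2 and HMMR did not pass the threshold of 0.05 on the adjusted p (limma with Benjamini-Hochberg adjustment over all 14884 genes). In all, 3 of 7 members passed, 1 higher and 2 lower, where 9.49% of all genes tested passed. CEMIP was the 1 member past the threshold with a fall of 2-fold or more, as were 0.611% of all genes. Because the difference of CEMIP was known when the family was taken up, nothing is read from that count. The median log2 difference of the 7 genes was 0.12, against 0.00 over all genes, with 5 members above 0 and 2 below. In bulk RNA, fewer cells carrying a transcript and less of it per cell cannot be told apart.

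**Figure D1:**
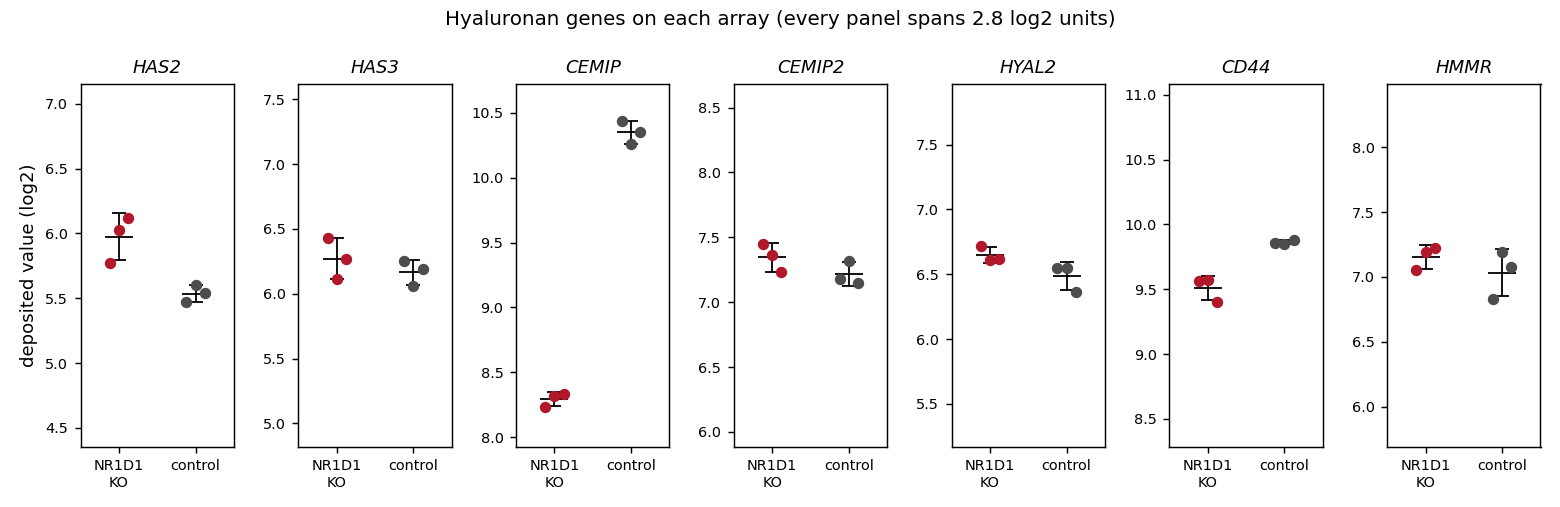
Deposited log2 values of the 7 measured hyaluronan genes on each array, with the 3 NR1D1 KO arrays in red at the left of each panel and the 3 control arrays in grey at the right. Bars give the mean and SD, and each panel spans the same range of log2 units. The CEMIP values of the groups lie about 2 log2 units apart (8.23 to 8.33 against 10.26 to 10.44), those of CD44 and HAS2 lie closer but do not overlap, and those of HAS3, CEMIP2 and HMMR overlap.

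The upstream sequence is shown for CEMIP and CD44, the members that were lower, and for CEMIP2, the relative of CEMIP that did not pass. These are the 250 bases before the annotated start in RefSeq (GRCh38.p14), read 5′ to 3′ on the gene's own strand, at chr15:80779120-80779369 on the plus strand for CEMIP, chr9:71768514-71768763 on the minus strand for CEMIP2 and chr11:35138921-35139170 on the plus strand for CD44. Capitals mark every match to 6 motifs searched on both strands, named in the next paragraph.
CEMIP: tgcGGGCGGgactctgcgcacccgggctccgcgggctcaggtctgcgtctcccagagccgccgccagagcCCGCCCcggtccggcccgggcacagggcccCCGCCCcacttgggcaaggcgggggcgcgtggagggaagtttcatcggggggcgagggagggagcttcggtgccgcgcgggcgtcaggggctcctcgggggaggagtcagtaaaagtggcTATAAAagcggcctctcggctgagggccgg
CEMIP2: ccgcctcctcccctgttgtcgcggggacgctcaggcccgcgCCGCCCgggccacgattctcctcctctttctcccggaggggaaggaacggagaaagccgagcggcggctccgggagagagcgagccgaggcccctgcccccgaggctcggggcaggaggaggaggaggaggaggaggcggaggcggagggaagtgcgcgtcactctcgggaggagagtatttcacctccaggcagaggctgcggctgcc
CD44: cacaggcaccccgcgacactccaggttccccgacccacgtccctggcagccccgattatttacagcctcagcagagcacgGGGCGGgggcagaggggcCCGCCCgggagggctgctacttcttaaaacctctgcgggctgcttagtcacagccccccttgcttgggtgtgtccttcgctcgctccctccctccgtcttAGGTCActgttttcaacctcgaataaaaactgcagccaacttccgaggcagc

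The TATA box was searched as TATAAA, and 10.7% of the 35116 RefSeq promoters held it in the same window of 250 bases. The AP-1 site was searched as TGANTCA, which 6.57% of those promoters held. The hexamer that REV-ERBα, its ROR counterparts and other nuclear receptors are known to bind was searched as AGGTCA, and 12.1% of promoters held it. The E-box of the clock activators was searched as CACGTG, with 6.34% of promoters holding it. The GC box was searched as GGGCGG, and 42.6% of promoters held it. The NF-κB consensus, searched as well, was held by 5.21%. No match in the printed windows overlapped another. CEMIP held a TATA box at 30 to 25 bases before its start and 3 GC boxes. CEMIP2 held 1 GC box and no other match. CD44 held 2 GC boxes and the nuclear receptor hexamer at 52 to 47 bases before its start. Of the 8 members with a promoter entry, HAS3 alone held an E-box, at 66 to 61 bases before its start, and none held the AP-1 site or the NF-κB consensus in this window. The windows of CEMIP and CEMIP2 were rich in G and C, at 74.4% and 71.6%, against 62.4% for CD44 and a median of 58% over all promoters. A match is a string of letters and was not tested for binding.

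Among the synthases, HAS2 was higher in the knockout and HAS3 was not called. HAS2, the synthase known for very long chains, measured 5.77, 6.03 and 6.12 in knockout arrays and 5.47, 5.60 and 5.54 in control arrays (log2). All 3 knockout values lay above the highest control value, and the knockout arrays had the wider spread (SD of 0.182, against 0.0646 in control). The log2 difference was 0.43 with a standard error of 0.106 and a 95% interval of 0.19 to 0.67 (limma adjusted p = 0.0397). The call was lost without any 1 array other than knockout replicate 1, at adjusted p between 0.0818 and 0.127, and when every probe set, named or not, was tested (adjusted p = 0.137). HAS2-AS1, the antisense RNA of the HAS2 locus, measured 4.58, 4.43 and 4.93 in knockout arrays and 4.58, 4.36 and 4.25 in control arrays, and its groups overlapped (log2 difference of 0.25, adjusted p = 0.356). Without knockout replicate 3, its highest value, the difference was 0.11.

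HAS3, the synthase known for shorter chains, measured 6.43, 6.11 and 6.27 in knockout arrays and 6.25, 6.06 and 6.19 in control arrays. The groups overlapped, and the 95% interval of the log2 difference ran from -0.14 to 0.34 (adjusted p = 0.632). A change of HAS3 as large as the estimate for HAS2 lies outside that interval, but the difference between the changes of these genes was not tested. HAS1, the remaining synthase gene, carried no named probe set here.

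Among the genes of breakdown, CEMIP stood apart from its relative and from HYAL2. CEMIP, which binds hyaluronan and is needed for its degradation in skin fibroblasts, measured 8.23, 8.32 and 8.33 in knockout arrays and 10.44, 10.26 and 10.35 in control arrays (log2). The groups were far apart, and each was tight, with an SD of 0.0532 in knockout and 0.0894 in control arrays. The log2 difference was -2.05 with a standard error of 0.0832 and a 95% interval of -2.24 to -1.86 (limma adjusted p = 2.74e-05). By size it was number 7 among the falls of all 14884 genes, by p it was number 2 of all genes, and 0.0806% of genes had a larger absolute difference. It was past the threshold under all 14 alternatives, at log2 differences of -2.10 to -2.01.

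CEMIP2 measured 7.45, 7.36 and 7.23 in knockout arrays and 7.18, 7.32 and 7.15 in control arrays. Its groups overlapped, with a log2 difference of 0.13 and a 95% interval of -0.08 to 0.34 (adjusted p = 0.463). The intervals of CEMIP and CEMIP2 were thus separated by well over 1 log2 unit. That of CEMIP2 held values of both signs, so no direction is read from it. The difference between the changes of CEMIP and CEMIP2 was not tested. HYAL2, a hyaluronidase anchored at the cell surface that cuts long chains, measured 6.72, 6.61 and 6.62 in knockout arrays and 6.55, 6.55 and 6.36 in control arrays. The HYAL2 values did not overlap, but the difference of 0.16 (95% interval of -0.04 to 0.36) did not pass (adjusted p = 0.318). Groups without overlap were found for 4 of the 7 members and for 28.7% of all genes.

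**Figure D2:**
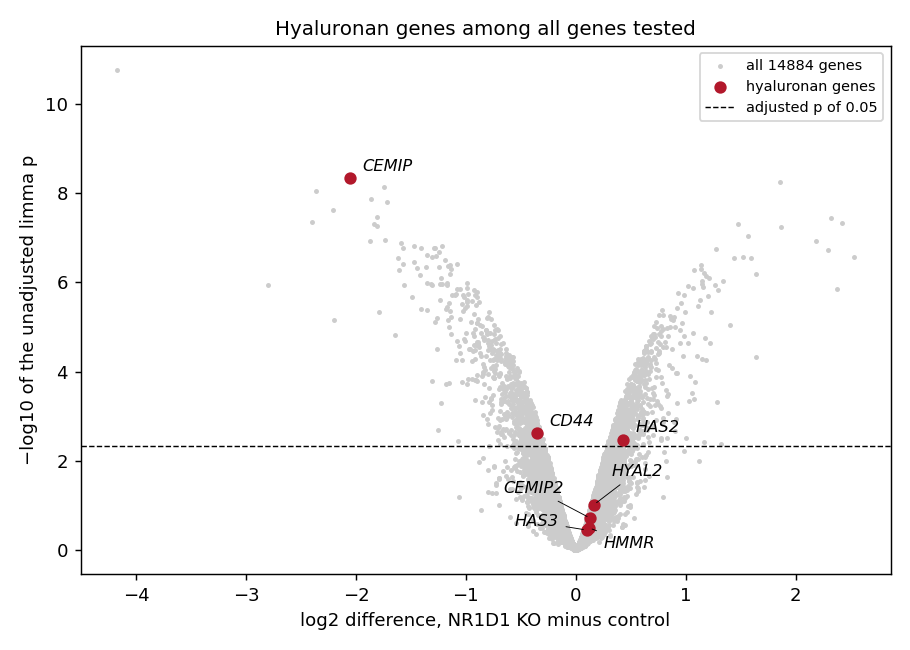
Log2 difference (NR1D1 KO minus control, horizontal axis) against -log10 of the unadjusted limma p (vertical axis) for 14884 genes in grey and the 7 hyaluronan genes in red. The dashed line marks an adjusted p of 0.05; CEMIP, at -2.05, lies at the left edge of the cloud, CD44 and HAS2 lie just above the line, and the other 4 members lie below it.

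Among the receptors, CD44 was slightly lower and HMMR was not called. CD44 measured 9.56, 9.57 and 9.40 in knockout arrays and 9.86, 9.85 and 9.88 in control arrays (log2). Every knockout value lay below every control value. The control arrays were nearly identical, with an SD of 0.0187, against 0.0973 in knockout arrays and a median control SD of 0.103 over all genes. The log2 difference was -0.35 with a standard error of 0.0822 and a 95% interval of -0.54 to -0.17 (limma adjusted p = 0.0324). The call was lost without any 1 of the 6 arrays (adjusted p between 0.052 and 0.112), with every probe set tested (adjusted p = 0.122) and with the replicate number as a block (adjusted p = 0.0734). A single probe set stood for CD44, so its splice variants could not be told apart.

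HMMR, the receptor also known as RHAMM, measured 7.05, 7.19 and 7.22 in knockout arrays and 6.83, 7.19 and 7.08 in control arrays. The groups overlapped, and the log2 difference of 0.12 had a 95% interval of -0.13 to 0.37 (adjusted p = 0.596). Control replicate 1 was the lowest of the 6 values, and without it the difference was 0.01.

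Each member was set beside the 20 nearest measured protein-coding genes, 10 on either side in genome order. The neighbours of CEMIP on chromosome 15 had a median log2 difference of -0.02 and ranged from -0.40 to 0.23, with 13 below 0 and 7 above. Of these, 1 passed, MINAR1, at -0.398 (adjusted p = 0.0409). CEMIP thus lay far outside the range of its neighbours. The neighbours of CD44 on chromosome 11 had a median of 0.07, and 1 was called, the epithelial transcription factor gene EHF, at -1.27 (adjusted p = 0.000114), 2 genes away from CD44. The neighbours of HAS2 on chromosome 8 were mixed, with a median of -0.01, a range of -0.83 to 1.27, 2 called higher (CCN3 and TMEM65) and 3 called lower (EXT1, SAMD12 and FBXO32). EXT1 encodes a heparan sulfate polymerase. The neighbours of HMMR on chromosome 5 had a median of 0.14, the highest of the 7. Of these, 4 were called higher (ADRA1B, PTTG1, SPDL1 and DOCK2) and 0 lower, where 4.74% of all genes passed in each direction. Those of HAS3, CEMIP2 and HYAL2 had medians of 0.06, -0.01 and 0.05, with 1 called higher beside each (TANGO6, PTAR1 and DOCK3) and 0 lower. The named neighbours were chosen after their values were seen.

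**Figure D3:**
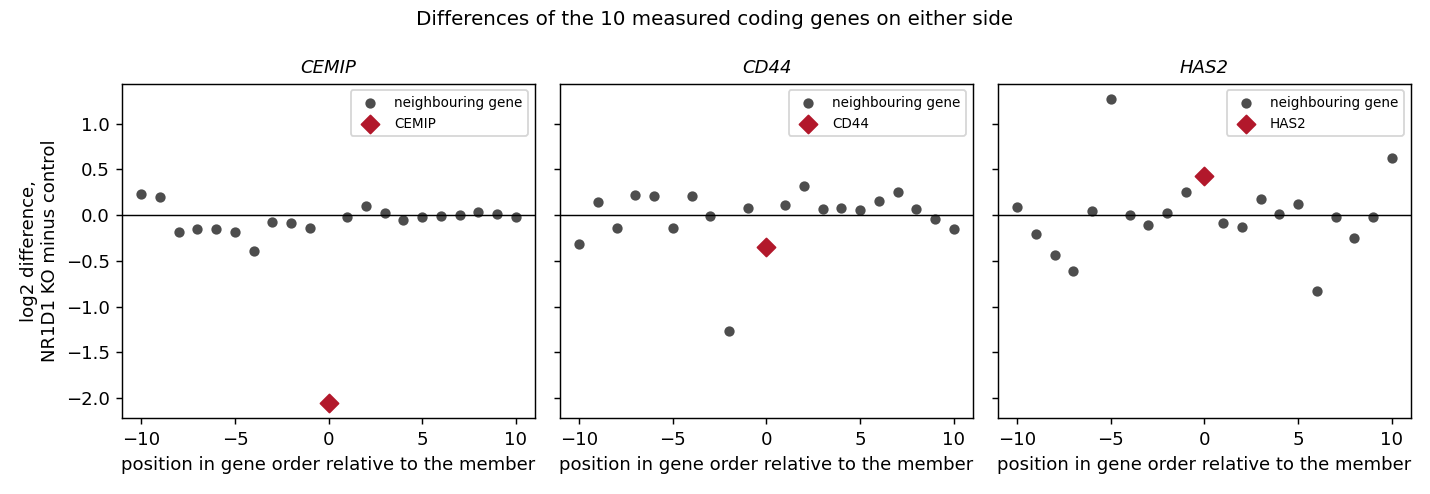
Log2 difference (NR1D1 KO minus control, vertical axis) of CEMIP, CD44 and HAS2 (red diamonds) and of the 10 nearest measured protein-coding genes on either side (grey), by position in gene order. CEMIP lies at -2.05 while its neighbours lie between -0.40 and 0.23; neighbours of HAS2 range from -0.83 to 1.27.

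The precursor pathway, which supplies the UDP sugars of the synthases, showed no called gene. Of 8 measured genes of 10 listed, 0 passed the limma test, where 9.49% of all genes passed. An unadjusted p under 0.05 was found for 3, and the median log2 difference of the 8 was 0.02. NAGK, the kinase that salvages N-acetylglucosamine, measured 6.71, 6.61 and 6.72 in knockout arrays and 6.20, 6.49 and 6.19 in control arrays. Its groups did not overlap, with a difference of 0.39 and an adjusted p of 0.0501, next to the threshold, and it passed under 5 of 14 alternatives. UGDH, the dehydrogenase that makes UDP-glucuronic acid, measured 8.92, 9.04 and 8.97 in knockout arrays and 9.15, 9.21 and 9.30 in control arrays. Its difference of -0.25 did not pass (adjusted p = 0.111), although the groups did not overlap, and it passed under 2 of 14 alternatives.

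Of the other enzymes listed, 3 of 7 were measured and 0 passed the limma test, with 0 at an unadjusted p under 0.05, where 9.49% of all genes passed. HEXA, a lysosomal hexosaminidase subunit that removes end sugars of short fragments, measured 8.57 ± 0.215 in knockout and 8.82 ± 0.0168 in control arrays (n = 3 each, limma adjusted p = 0.237). HYAL4, a relative of the hyaluronidases known for cutting chondroitin sulfate, differed by 0.02 (adjusted p = 0.945).

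Among other genes whose products bind hyaluronan or respond to its fragments, 3 were lower and 1 was higher of 21 measured of 26 listed, where 4.74% of all genes passed in each direction. The median log2 difference was -0.06, with 8 genes above 0 and 13 below. TLR2, an innate receptor reported to respond to hyaluronan fragments, measured 6.98, 6.90 and 6.96 in knockout arrays and 8.57, 8.73 and 8.69 in control arrays. It was 3.28-fold lower, with tight groups far apart (limma adjusted p = 3.32e-05). TLR4, the other innate receptor reported for such fragments, went the other way. It measured 7.06, 7.05 and 6.90 in knockout arrays and 6.22, 6.20 and 6.32 in control arrays, which is 1.69-fold higher (adjusted p = 0.00122). The values of the knockout arrays all lay above those of the controls.

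LAYN, which encodes the membrane hyaluronan receptor layilin, measured 7.05, 7.29 and 7.37 in knockout arrays and 8.06, 8.10 and 8.21 in control arrays. It was 1.85-fold lower, without overlap (adjusted p = 0.00165). SUSD5, which carries a hyaluronan-binding link domain, measured 5.35 ± 0.222 in knockout and 5.85 ± 0.103 in control arrays (n = 3 each), 1.41-fold lower (limma adjusted p = 0.0392), and this call was lost without any 1 of the 6 arrays (0.0573 to 0.131) with the replicate block (0.0818) and with every probe set tested (0.135). The calls of TLR2, LAYN and TLR4 held under all 14 alternatives. The other 17 genes, which include VCAN, ACAN, LYVE1, STAB1, STAB2 and the HAPLN link proteins, lay between -0.21 and 0.26 and did not pass. TNFAIP6, ITIH4, ITIH5, PTX3 and C1QBP carried no named probe set here.

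**Figure D4:**
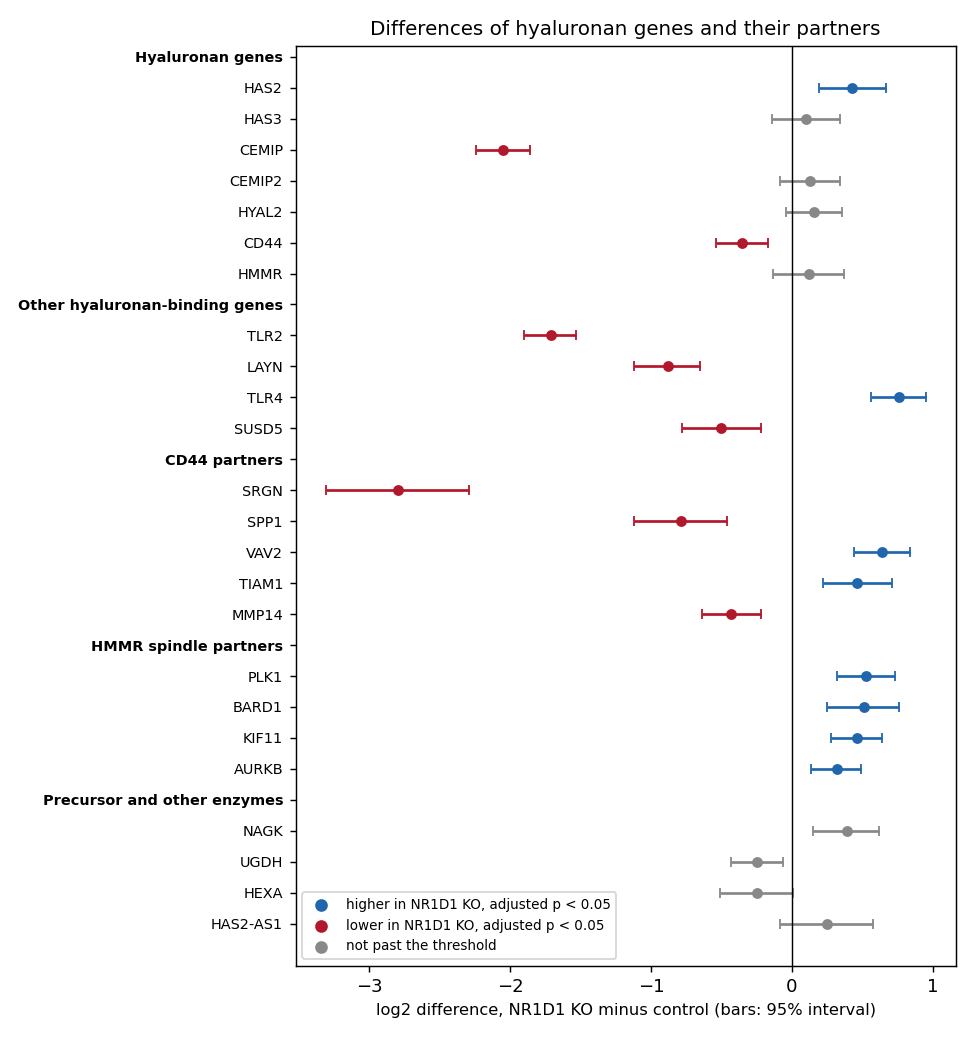
Log2 difference (NR1D1 KO minus control, horizontal axis) with its 95% interval from the limma fit for the 7 hyaluronan genes and for the named genes of the other lists. Red marks genes called lower, blue genes called higher and grey genes not past the threshold; CEMIP (-2.05), TLR2 (-1.71) and SRGN (-2.80) lie farthest below 0, and TLR4 (0.76) and VAV2 (0.64) farthest above it.

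Genes around CD44 moved in both directions. Of 15 measured partners of 19 listed (ligands, cytoskeletal linkers, sheddases, splice regulators and signalling partners), 3 were lower and 2 were higher, with a median log2 difference of 0.04, where 4.74% of all genes passed in each direction. The lower genes were ligands and a protease. SRGN, whose proteoglycan serglycin is a CD44 ligand, measured 6.38, 7.33 and 7.09 in knockout arrays and 9.69, 9.94 and 9.58 in control arrays, and knockout replicate 1 was the lowest of the 6 by a wide margin (6.96-fold lower, limma adjusted p = 0.000238). SPP1, the gene of the CD44 ligand osteopontin, measured 3.34, 3.65 and 3.17 in knockout arrays and 4.30, 4.27 and 3.97 in control arrays (adjusted p = 0.0115). Its values are dim, under the lower quartile of gene means (4.91), where folds can be too small. MMP14, a membrane protease that sheds CD44, differed by -0.43 (9.73 ± 0.123 in knockout and 10.16 ± 0.0734 in control arrays, adjusted p = 0.0243).

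The higher genes were VAV2 and TIAM1, signalling genes whose products are known to act with CD44. VAV2 measured 8.50, 8.63 and 8.48 in knockout arrays and 7.80, 7.94 and 7.95 in control arrays, 1.56-fold higher without overlap (adjusted p = 0.00298). TIAM1 measured 7.23 ± 0.0895 in knockout and 6.77 ± 0.176 in control arrays (n = 3 each), 1.38-fold higher (limma adjusted p = 0.0317). The calls of TIAM1 and MMP14 were lost without control replicate 1 (adjusted p of 0.103 and 0.0833), control replicate 3 (0.11 and 0.0942), knockout replicate 2 (0.0641 and 0.0718) or knockout replicate 3 (0.0938 and 0.0696), and with the replicate block (0.0734 and 0.0534), and that of TIAM1 also without knockout replicate 1 (0.0742). With every probe set tested, SPP1, TIAM1 and MMP14 missed the threshold (0.0573, 0.119 and 0.0982). The list had 5 calls, and 3 when control replicate 1 or 3, or knockout replicate 2 or 3, was left out. The linker genes EZR, MSN and RDX, which tie CD44 to actin, differed by 0.04, 0.09 and 0.19 and did not pass (adjusted p of 0.841, 0.599 and 0.224).

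Of the spindle partners of HMMR, 6 of 12 listed were measured. Of these, 4 were higher and 0 lower, where 4.74% of all genes passed in each direction. The 6 had a median log2 difference of 0.39, and all lay above 0 with groups that did not overlap, as was the case for 28.7% of all genes in either direction. AURKA and NUMA1 did not pass (adjusted p of 0.0868 and 0.487). PLK1, a mitotic kinase, measured 9.88, 10.07 and 10.11 in knockout arrays and 9.43, 9.51 and 9.53 in control arrays, 1.44-fold higher (adjusted p = 0.00913). BARD1, the partner of BRCA1, was 1.42-fold higher, KIF11, a spindle motor, 1.38-fold higher and AURKB, a mitotic kinase, 1.25-fold higher (limma adjusted p of 0.0261, 0.00956 and 0.0373). The list had 2 calls without knockout replicate 1 or 2 or without any 1 control array. AURKB was lost without any 1 of the 6 arrays (0.0643 to 0.129) and with the replicate block (0.0793), and BARD1 without any 1 array other than knockout replicate 3 (0.051 to 0.084). With every probe set tested, only PLK1 of these 4 passed, at an adjusted p of 0.0491. Whether the change of HMMR differed from those of its partners was not tested.

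The profile of CEMIP over the 6 arrays was most like those of DPP4, PDE4DIP and CSF1. Likeness was the Euclidean distance between the 6 log2 values after each gene was centred on its own mean, over all genes other than members. With only 2 groups of 3 arrays, this measure mostly finds genes with a fall of similar size. DPP4, a cell-surface peptidase gene, measured 5.80, 5.67 and 5.80 in knockout arrays and 7.64, 7.51 and 7.69 in control arrays. PDE4DIP has near-identical copies, so its value is uncertain, and CSF1 encodes a macrophage growth factor. The genes most like HMMR were THBS4, REEP4 and LRRC1, with log2 differences of 0.15, 0.12 and 0.14, none past the threshold (limma adjusted p of 0.479, 0.589 and 0.488).

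Markers of other cell types were read beside these differences. Of 7 leukocyte markers 2 were measured, with array means over both of 7.14 to 7.52 in knockout and 7.41 to 7.65 in control arrays. CD68, a lysosomal protein gene of macrophages that carcinoma lines also express, was lower (10.42 ± 0.126 in knockout and 10.87 ± 0.0323 in control arrays, n = 3 each, limma adjusted p = 0.0167), and LYZ differed by 0.00. Without control replicate 1, 2 or 3 CD68 missed the threshold (0.05, 0.0583 and 0.066). Of 6 fibroblast markers 2 were measured, LUM and DCN, and 0 passed, with array means of 3.81 to 4.16 in knockout and 3.88 to 3.97 in control arrays. The epithelial genes EPCAM and KRT18 were 1.32-fold and 1.28-fold higher in the knockout and VIM 1.27-fold higher (limma adjusted p of 0.0286, 0.0439 and 0.0337). The KRT18 probe set used, the brighter of 2, is numbered next to those of chromosome 3 genes, whereas KRT18 lies on chromosome 12. The KRT18 value is therefore uncertain. The calls of EPCAM and VIM were lost without any 1 control array or knockout replicate 2 or 3 (adjusted p of 0.0551 to 0.117), and that of KRT18 without any 1 of the 6 arrays (0.0656 to 0.156). With every probe set tested, CD68, EPCAM, KRT18 and VIM all missed it (0.075, 0.111, 0.148 and 0.126). VIM and KRT18 also missed it with the replicate block (0.0787 and 0.0973), and KRT18 with quantile normalization (0.0642) and averaged probe sets (0.0513). What part these markers have in the differences above was not tested.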

How the data were processed

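Total RNA of 6 MDA-MB-231 samples was amplified as sense cDNA, fragmented and labelled with biotin, per the labels' protocols. The values the authors deposited span a range from which they were taken to be log2 summaries of probe sets. Array medians are nearly equal (5.18 to 5.22), so the values were taken to have been normalized between arrays. How background, normalization and probe set summaries were handled is not given in the sources used here. An error in the scale would change every fold. Groups came from the titles.

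Of 53617 probe sets, 16098 carried 1 gene symbol in the platform annotation. The other 37519 carried either none or more than 1 and are left unnamed here. All 16098 matched a RefSeq gene table of GRCh38.p14, which served for names, chromosomes and gene order. The brightest probe set stood for each of 779 genes with several. limma 3.58.1 under R 4.3.3 compared the groups (lmFit, eBayes, two-sided) over 14884 genes, with Benjamini-Hochberg adjustment over all of them and a threshold of 0.05. A call is an adjusted p under it. No gene was removed for a low value.

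The members and the 8 lists (5 of pathway genes, 3 of markers) were chosen with earlier results of these data known. Text names the members, up to 6 called genes of a list or, in a list with none called, the 2 of lowest p, and the 3 genes most like CEMIP and HMMR. Other genes are given only as examples of a list's members or where the text says so. No set test was run. The fit was run on simulated data with 200 genes changed by a log2 size of 1 or 2, of which it called 98.3% and 100%. Of its calls, 4.49% were unchanged genes. Both simulated sizes exceed the differences of CD44, of HAS2 and of every called list gene except TLR2 and SRGN. The simulation does not bear on calls at such smaller differences. Replicate numbers were not taken as pairs, since deviations of same-numbered arrays correlated at 0.055, 0.068 and -0.106. Promoter windows are RefSeq's, cut to the 250 bases before the start, and HAS2 had no entry. Plots used matplotlib 3.10.9 and Python 3.11.15.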

Additional observations from a re-analysis of the deposited data

How the results depend on the processing

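The 14 alternatives changed the normalization (quantile, or array medians set equal), the genes tested (without the dimmest 25% or 50%), the probe sets (their mean per gene, or every one tested), the prior (trend and robust), the design (a replicate block) or the arrays (each left out in turn). No member changed sign under any of them, and CEMIP was past the threshold in each. HAS2 is among the dimmest 50% of genes and has no value without them. The 3 calls among the members were 1 (CEMIP) when every probe set was tested and 1 to 2 without any 1 array. The 1412 calls over all genes were 539 when every probe set was tested and 723 to 1049 without any 1 array. They rose to 1771 without the dimmest 25%, 1887 without the dimmest 50% and 1953 with the trend and robust prior. The precursor list, with 0 calls, had 1 without the dimmest 25%, 2 without the dimmest 50%, 1 with averaged probe sets, 2 with the trend and robust prior and 0 to 1 without any 1 array. The 5 calls among CD44 partners were 2 when every probe set was tested, 3 with the replicate block and 3 to 5 without any 1 array. With the trend and robust prior they were 7. The 4 calls among HMMR spindle partners were 1 when every probe set was tested and 2 to 3 without any 1 array. They were 5 without the dimmest 50% and 5 with the trend and robust prior. The 4 calls among other hyaluronan-binding genes ranged from 3 to 4, and the other enzymes had 0 under each alternative. Testing every probe set adjusts over more tests, and leaving out an array leaves fewer samples; other causes were not tested. With the replicate block, 1050 genes were called, and 2 members, CEMIP and HAS2, passed. The numbers do not pair the samples by the labels, and not every array correlated best with its own number: knockout replicate 1 correlated at 0.055 with control replicate 1 and at 0.079 with control replicate 3. Among genes with no call, LUM ranged from -0.07 to 0.34 and DCN from -0.02 to 0.06 without any 1 array, with the opposite sign for LUM without knockout replicate 2 and for DCN without knockout replicate 1 (-0.01) or control replicate 2. The number of arrays limits the precision, with a median standard error of 0.101 for a log2 difference over all genes, and signal over background is unknown without scanner files.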
